A study of Mus musculus with 5 samples.

Results

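The genes described here build the dermal-epidermal junction, and they were read from the ChIP-seq peaks of SOX11 and SOX4 in mouse keratinocytes. They are 9: *Lama3*, *Lama5*, *Lamb3* and *Lamc1* for laminin chains, *Col17a1* and *Col7a1* for collagens, *Dst* and *Plec* for plaque proteins, and *Cd151* for a tetraspanin. A peak of either factor was taken when its centre lay in the body of a member or within 10 kb of it, or when the closest protein-coding transcription start of the GENCODE M1 annotation was a member's. This took 30 SOX11 peaks out of 21270 and 2 SOX4 peaks out of 2669. The rule used position only, so neither the sequence of a peak nor its overlap with the other factor decided which peaks were taken.

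The primary keratinocytes came from newborn mice of mixed 129SvEx:C57BL/6 background that carried Krt14-Cre with floxed alleles of both genes, Sox4 fl/fl and Sox11 fl/fl (dcKO). Cre driven by the *Krt14* promoter, which is active in basal keratinocytes, deletes both *Sox* genes in them. Per the study's methods the Cre line was FVB/N and the floxed parents also carried Sox12-/-, and whether the cells did is not given in the sources used here. All 5 libraries came from such cells. For 2 of them the cells carried a lentivirus with Sox11-Flag and for 2 others a lentivirus with Sox4-Flag, each under the tetracycline-inducible vector pINDUCER21 and induced with doxycycline for a day, and the chromatin was precipitated with a mouse antibody against FLAG. The remaining library is a control whose title says input and whose antibody field says IgG. The lists therefore show where tagged, introduced proteins were found in cells without the endogenous ones. Each factor's list was made from both of its replicates and gives positions without heights, so no value below carries a spread between replicates, the read depth is unknown, and it cannot be said which peaks were stronger. The lists hold no expression values, so the keratinocyte label was not checked against marker genes. All coordinates are those of mm9, counted from 1.

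The epidermis rests on a basement membrane, a sheet of laminins, type IV collagen, nidogen and perlecan that basal keratinocytes hold on to. Their grip is the hemidesmosome, in which the integrin α6β4, type XVII collagen (BP180) and the tetraspanin CD151 span the cell membrane, while plectin and the epithelial form of dystonin (BPAG1) tie them to keratin filaments inside the cell. Outside the cell, laminin-332 links the hemidesmosome to anchoring fibrils of type VII collagen, and inherited loss of these proteins makes the skin blister. SOX11 and SOX4 are SoxC transcription factors, whose HMG box recognises short sequences around ATTGT or TTTGT.

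The sequences of 7 SOX11 peaks are printed first, to show the DNA on which the results turn. Each is the peak that overlaps a SOX4 peak or, for genes without one, the member's earliest peak in the list that touches no UTR. Each is 258 bp of the plus strand of mm9, in lower case, with capitals where a core motif was found on either strand. The SOX core is CATTGT or CTTTGT, the AP-1 core TGACTCA or TGAGTCA, and the TEAD core GGAATG; read on the other strand, a SOX core appears as ACAATG or ACAAAG and a TEAD core as CATTCC. AP-1 is the FOS/JUN dimer and TEAD the DNA-binding partner of YAP and TAZ. Such cores may share bases, since the end of GGAATG can open TGACTCA, but none printed here do. The *Lama5* peak, 10.8 kb upstream of the only *Lama5* start, spans chr2:179971202-179971459. The *Lamb3* promoter peak spans chr1:195127597-195127854. The *Col17a1* peak shared with SOX4 spans chr19:47772845-47773102. The *Col7a1* promoter peak spans chr9:108855135-108855392. The *Dst* intron peak spans chr1:34197611-34197868. The *Plec* peak shared with SOX4 spans chr15:75989284-75989541, and the *Cd151* peak in its first intron spans chr7:148653567-148653824.
Lamb3 promoter: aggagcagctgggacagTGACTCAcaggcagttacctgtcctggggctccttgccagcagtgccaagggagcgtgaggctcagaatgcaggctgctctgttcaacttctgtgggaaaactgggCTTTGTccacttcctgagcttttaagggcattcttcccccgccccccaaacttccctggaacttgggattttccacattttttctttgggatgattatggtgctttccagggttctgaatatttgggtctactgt
Col7a1 promoter: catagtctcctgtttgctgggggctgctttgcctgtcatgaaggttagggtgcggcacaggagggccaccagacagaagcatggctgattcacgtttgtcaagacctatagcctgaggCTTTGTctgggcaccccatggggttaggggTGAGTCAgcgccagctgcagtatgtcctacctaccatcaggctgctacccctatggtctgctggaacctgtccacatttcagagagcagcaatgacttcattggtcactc
Cd151 promoter and first intron: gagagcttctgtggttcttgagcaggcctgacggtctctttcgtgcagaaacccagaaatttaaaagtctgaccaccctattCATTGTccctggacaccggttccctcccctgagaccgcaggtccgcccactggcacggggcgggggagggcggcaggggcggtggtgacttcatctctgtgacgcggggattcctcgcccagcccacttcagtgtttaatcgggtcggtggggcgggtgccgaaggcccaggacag
Col17a1 upstream, shared with SOX4: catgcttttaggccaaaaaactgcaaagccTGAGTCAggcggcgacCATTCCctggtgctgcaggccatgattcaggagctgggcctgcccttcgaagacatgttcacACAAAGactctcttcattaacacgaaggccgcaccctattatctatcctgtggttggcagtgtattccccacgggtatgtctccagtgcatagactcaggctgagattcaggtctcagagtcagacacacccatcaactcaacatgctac
Plec downstream, shared with SOX4: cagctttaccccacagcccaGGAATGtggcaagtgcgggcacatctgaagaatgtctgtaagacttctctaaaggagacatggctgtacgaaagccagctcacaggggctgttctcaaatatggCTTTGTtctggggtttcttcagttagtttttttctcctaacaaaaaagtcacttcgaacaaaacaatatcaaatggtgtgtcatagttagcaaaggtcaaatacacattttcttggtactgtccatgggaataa
Dst intron: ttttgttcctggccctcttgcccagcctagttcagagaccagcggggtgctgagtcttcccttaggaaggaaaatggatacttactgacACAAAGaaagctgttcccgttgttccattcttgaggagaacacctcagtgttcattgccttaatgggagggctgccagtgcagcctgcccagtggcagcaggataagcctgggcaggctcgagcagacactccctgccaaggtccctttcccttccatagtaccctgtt
Lama5 upstream: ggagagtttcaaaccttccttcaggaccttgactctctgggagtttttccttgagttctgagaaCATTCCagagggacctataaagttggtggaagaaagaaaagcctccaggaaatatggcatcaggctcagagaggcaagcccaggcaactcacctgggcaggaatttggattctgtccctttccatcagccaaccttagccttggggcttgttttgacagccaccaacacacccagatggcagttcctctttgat

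The printed peaks differ in what they hold near the middle. In the *Plec* peak the SOX core lies 2 bp from the centre, in the *Lamb3* peak 3 bp, in the *Col7a1* peak 8 bp and in the *Col17a1* peak 18 bp, while in the *Dst* and *Cd151* peaks it lies 37 bp and 44 bp away. The *Lamb3*, *Col7a1* and *Col17a1* peaks add an AP-1 core, which is nearest to the centre, at 22 bp, in *Col7a1*. The *Lama5* peak has a TEAD core only, 62 bp from its centre.

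All 9 genes had at least 1 SOX11 peak, where 57.3% of 22380 protein-coding genes had one by the same rule. A SOX4 peak was found for 2 of the 9, *Col17a1* and *Plec*, against 13.1% of protein-coding genes and, in the length classes that hold 8 of the 9, 15.4% and 21.2%. In 7 of the 9 a SOX11 peak lay in the gene's own promoter, taken as 1 kb upstream to 100 bp downstream of a protein-coding start. This holds for 21.8% of protein-coding genes and, in those 2 length classes, for 29.7% and 28.1%. *Lama5* and *Plec* were without an own-promoter peak. A gene with more starts has more such windows, and the number of starts was not matched. The number of SOX11 peaks ran from 1 for *Lamb3* and *Plec* to 8 for *Dst*, with a median of 3, and the median over all protein-coding genes was 1. Of the 30 peaks, 26 lay within a gene body or 10 kb of it and 19 within the body itself. For 25 the nearest start was the member's own, and 4 were taken by the nearest start alone. No peak belonged to more than 1 of the 9 genes. Of the peaks outside a body, those nearest to the 10 kb limit were at 6.39 kb (*Col17a1*) on the inside and, on the outside, at 10.8 kb (*Lama5*) and 12 kb (*Plec*), both taken by their nearest start.

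**Figure D1:**
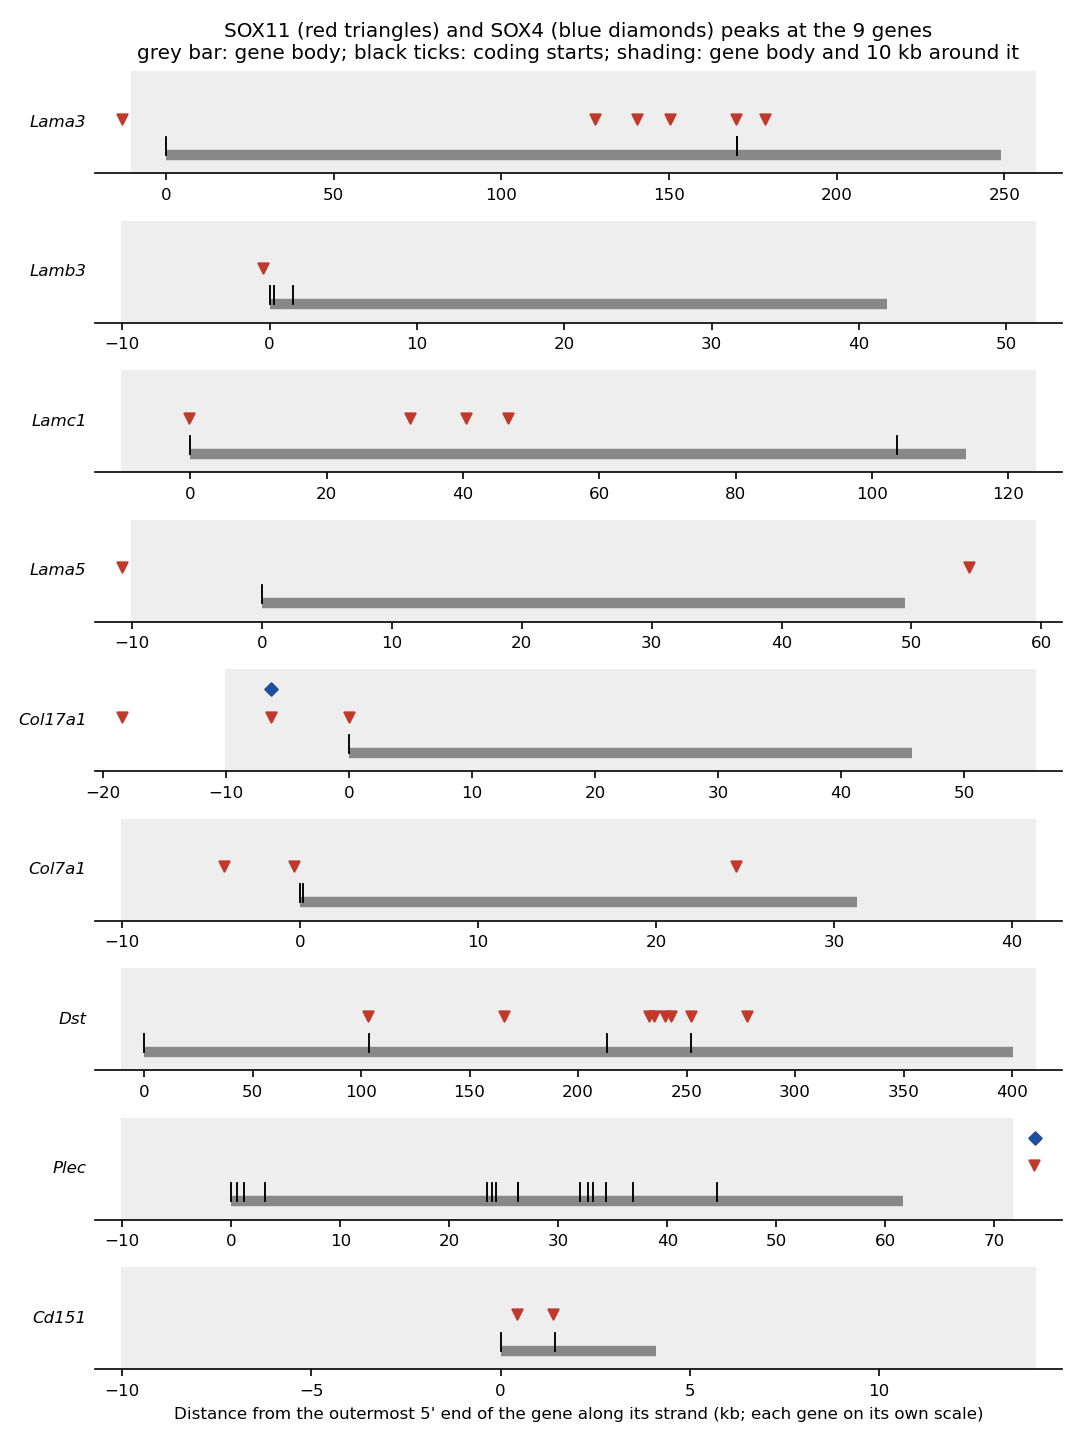
Positions of SOX11 peaks (red triangles) and SOX4 peaks (blue diamonds) along the 9 genes, in kb from the outermost 5' end of each gene along its strand, each gene on its own scale. Grey bars are gene bodies, black ticks protein-coding starts and shading the body with 10 kb on each side. A triangle sits within 1 kb of a start in 7 genes, a diamond lies above a triangle at *Col17a1* and *Plec*, and the body of *Plec* holds no peak.

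Laminins are trimers of an α, a β and a γ chain. The product of *Lama3* is the α3 chain of laminin-332, the laminin bound by the hemidesmosome. The gene spans 249 kb, from 12492533 to 12741522 on the plus strand of chromosome 18, and had 6 SOX11 peaks, a number reached by 2.9% of protein-coding genes. None of them was close to the outermost start, at 12492533. The nearest to that start was 13 kb upstream, from 12479408 to 12479665. The peak earliest in the list, number 3770 from 12662470 to 12662727, was instead 170 kb into the gene, at a pair of internal starts at 12662711 and 12662772, 0.112 kb and 0.173 kb upstream of them. It held 2 AP-1 cores and no SOX core. The 4 other peaks were in introns, with *Gm17506* as the nearest start for 3 of them. The internal starts thus carried a promoter peak and the outer start did not.

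The β3 chain of laminin-332 comes from *Lamb3*, 41.9 kb on the plus strand of chromosome 1 from 195128151 to 195170072. Its only SOX11 peak was number 2840, centred 0.425 kb upstream of the outermost start, with 1 SOX core and 1 AP-1 core. No other SOX11 peak came within 56.7 kb of the gene. Its 41.9 kb body was thus free of peaks, and the gene was marked at its promoter alone.

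Laminin-511, the laminin found under epidermis and many other epithelia, pairs the α5 chain of *Lama5* with the γ1 chain of *Lamc1*. *Lamc1* (113.9 kb, minus strand of chromosome 1, 155066052 to 155179916) had 4 SOX11 peaks. The promoter peak, number 8378, was centred 0.173 kb upstream of the outermost start. The others, numbers 10856, 15005 and 16394, lay in the first intron at 32.3, 40.4 and 46.5 kb from that start, of which the nearest held an AP-1 core and the farthest a TEAD core. *Lama5* (49.5 kb, minus strand of chromosome 2, 179911078 to 179960564) had 2 peaks and none in its body. Number 918 was centred 10.8 kb upstream of the start, just beyond the 10 kb flank. Number 876 lay 4.96 kb past the 3' end, but its nearest start was that of *Adrm1*, 0.071 kb away, and it held no core. *Lama5* was therefore reached only by 1 upstream peak and 1 peak at a neighbour's promoter.

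Type XVII collagen, the transmembrane collagen of the hemidesmosome, is encoded by *Col17a1* (45.8 kb, minus strand of chromosome 19, 47720834 to 47766584). Of its 3 SOX11 peaks, none was in the body. Number 3969, from 47766485 to 47766742, was centred 0.03 kb upstream of the start, the closest to a start among the 30, and held a SOX core. Number 423 was the earliest in the list of all 30, 6.39 kb upstream between genes, with 1 core each of SOX, AP-1 and TEAD. SOX4 peak number 966, from 47772766 to 47773105, covered all 258 bp of it, and the centres were 38 bp apart. Number 7563 was 18.5 kb upstream and held no core. The shared place at this gene was thus the upstream one, and the promoter peak was in the SOX11 list alone.

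*Col7a1* encodes type VII collagen, the protein of the anchoring fibrils below the basement membrane. It is 31.3 kb long on the plus strand of chromosome 9, from 108855631 to 108886920, and had 3 SOX11 peaks and no SOX4 peak. Number 2716 was in the promoter, 0.367 kb upstream of the outermost start, and held a SOX and an AP-1 core. Number 1915, the earliest of the 3 in the list, was 4.26 kb upstream in an intron of the neighbour *Uqcrc1* and held a TEAD core. Number 8191 was in an intron 24.5 kb into the gene, where the start of *Ucn2* was nearer, and again held a SOX and an AP-1 core.

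*Dst* encodes dystonin, a cytolinker with epithelial, neuronal and muscle forms, of which the epithelial one is BPAG1 of the hemidesmosome plaque. It is the longest of the 9 genes, 400.4 kb on the plus strand of chromosome 1 from 33965125 to 34365495, and its 8 SOX11 peaks all lay in the body. As many peaks were found for 1.27% of protein-coding genes. The 4 protein-coding starts differed. The outermost, at 33965125, had its nearest SOX11 peak 93.7 kb upstream, at *Zfp451*. The next, at 34068670 and shared by 5 transcripts, had peak number 11568 centred 0.358 kb upstream, in DNA of 68.6% G and C with a SOX core. The start at 34178476 had its nearest peak 19.3 kb downstream. The last, at 34217177, had peak number 7184, from 34216839 to 34217096, centred 0.209 kb upstream, with none of the 3 cores. Promoter peaks were thus present at 2 of the 4 starts.

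Between the starts at 34178476 and 34217177, in a single intron, 4 of the *Dst* peaks followed each other with centres 2.23, 5.06 and 2.73 kb apart, from 34197611 to 34207885. They were numbers 3726, 6058, 11213 and 13852 in genomic order, so each came later in the list than the one before it. Their cores differed: a SOX core in the first, none in the second, all 3 kinds in the third and a TEAD core in the last. Number 5448, 62.6 kb past the promoter peak of the shared start, held a SOX core and 2 AP-1 cores, and number 16379, 26.1 kb past the promoter peak of the last start, held 1 of each. No SOX4 peak was found closer than 534 kb to the gene.

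Plectin, the second cytolinker of the plaque, comes from *Plec* (61.6 kb, minus strand of chromosome 15, 76001404 to 76063004). It has 15 protein-coding start positions, and none had a peak of either factor within 14 kb. Its only SOX11 peak, number 898, lay 12 kb beyond the 3' end, 29.1 kb from the nearest *Plec* start and 73.6 kb from the outermost, between genes. It was taken because no other protein-coding start was nearer. It held a SOX and a TEAD core, and SOX4 peak number 1310, from 75989143 to 75989482, overlapped it by 199 bp with centres 100 bp apart. The nearest SOX11 peak on the other side, 14.2 kb upstream of the gene at the promoter of *Grina*, was outside the rule. With the body and 10 kb flanks alone, *Plec* had no peak of either factor.

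*Cd151* encodes a tetraspanin that binds laminin-binding integrins, and at 4.12 kb (plus strand of chromosome 7, 148653261 to 148657378) it is the shortest of the 9. It had 2 SOX11 peaks, both in the promoter window of its inner start and 0.939 kb apart. Number 3887 was centred 0.435 kb downstream of the outer start, at 148653261, in its first intron, and held a SOX core. Number 3434, from 148654506 to 148654763, was centred 0.053 kb upstream of the inner start, at 148654688, and held none of the 3 cores. Both promoter peaks thus belonged to the inner start. The outer start had number 3887 close by, but downstream of its own promoter window. Per 100 kb of gene body and flanks the gene had 8.29 SOX11 peaks, against 5.85 for *Col7a1* and 1.90 for *Dst*, and *Plec* at 0 stood at the other end. For a gene this short most of that window is flank, and no density over all genes is given here.

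No SOX4 peak was taken for the other 7 genes. Most protein-coding genes had none either, since 13.1% had one by the same rule. The distances below were not compared with those of other genes. The SOX4 peak nearest to the gene body was 71.8 kb away for *Lama5*, 111 kb for *Col7a1*, 155 kb for *Lamc1*, 158 kb for *Lama3*, 179 kb for *Lamb3*, 238 kb for *Cd151* and 534 kb for *Dst*. Both SOX4 peaks that were taken overlapped a SOX11 peak. The study reports such overlap for nearly all SOX4-bound regions, so it is not particular to these genes. Over the whole lists, 2522 SOX11 peaks overlapped a SOX4 peak, and the SOX4 list holds 2669 peaks. In the other direction, 2 of the 30 SOX11 peaks overlapped a SOX4 peak by at least 1 bp, 6.67% with a 95% Wilson interval of 1.85% to 21.3%, and the share in the whole SOX11 list was 11.9%, inside that interval. None of the 10 promoter peaks overlapped a SOX4 peak (interval 0 to 27.8%, against 11.3% of all promoter SOX11 peaks). Intervals here cover counting error over peaks, which are not replicates.

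**Figure D2:**
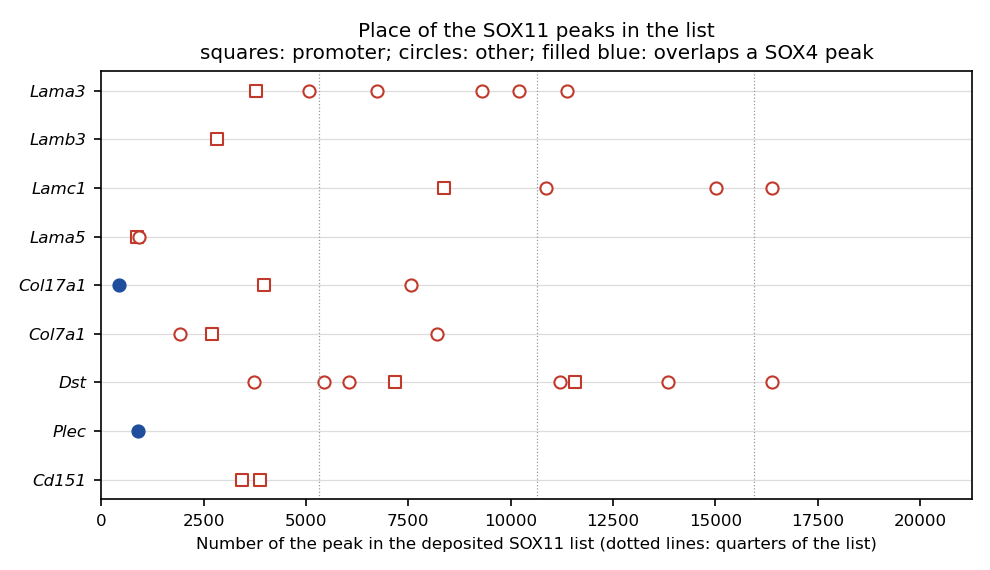
Number of each of the 30 SOX11 peaks in the deposited list, by gene, with squares for peaks in promoters and circles for all others. Filled blue symbols overlap a SOX4 peak and dotted lines divide the list into 4 equal parts; both filled symbols are among the first 1000 entries, and the symbols thin out to the right, with 2 in the last part.

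The list is not in genomic order, and what orders it is not given in the sources used here. With the SOX11 list divided into 4 equal parts, these held 13, 9, 6 and 2 of the 30 peaks from first to last, as plotted by list number. The median list number was 6401, and it was 3828.5 for the 10 promoter peaks and 7877 for the 20 others. Over the whole list, promoter peaks made up 22.1%, 25.6%, 25.1% and 14.2% of the 4 parts, so they were not gathered in the first. Overlap with SOX4 followed the list, from 35.6% of all SOX11 peaks in the first part to 6.51%, 3.14% and 2.18% in the next ones. Among the first 1000 SOX11 peaks, 81.1% overlapped a SOX4 peak, and 4 were of these genes. The *Col17a1* and *Plec* peaks among them, numbers 423 and 898, were shared with SOX4. Both *Lama5* peaks, numbers 876 and 918, were not.

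By place, 10 of the 30 SOX11 peaks lay in promoters of any protein-coding gene, 33.3% with an interval of 19.2% to 51.2%, against 21.8% of the whole SOX11 list. Of these 10, 9 were in a member's own promoter and 1 in that of *Adrm1*. A further 15 were in introns (50%, interval 33.2% to 66.8%, whole list 34.3%), 5 between genes (16.7%, interval 7.34% to 33.6%, whole list 40.5%) and none in exons (interval 0 to 11.4%, whole list 3.46%). The intergenic share alone had an interval that stopped short of the whole list's value, and the rule itself favours peaks inside gene bodies. The 30 peaks lay a median of 10.1 kb from the nearest start and those of the whole list 14.1 kb. The rule chose peaks by position near genes and starts, so it bears on this distance and on all the shares by place. They are given as description only. G and C made up a median of 56.8% of the promoter peaks (45.0% to 74.8%), against 64.7% over all promoter SOX11 peaks, and 49.4% of the others, against 49.6%.

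The cores were counted as exact matches on both strands, beside the same counts in windows of equal width placed 2 kb downstream. A SOX core was in 15 of the 30 peaks, 50% with an interval of 33.2% to 66.8%, against 58.5% of the whole SOX11 list, and in 40% of the shifted windows, against 32.2% for the whole list. An AP-1 core was in 11, 36.7% (interval 21.9% to 54.5%), where the whole list had 28.5%, and in 10% of the shifted windows, where the whole list had 4.59%. A TEAD core was in 8, 26.7% (interval 14.2% to 44.4%), where the whole list had 22.8%, and in 10% of the shifted windows, where the whole list had 13.4%. SOX and AP-1 cores stood together in 7 peaks, 23.3% against 17.2%, and 7 peaks held none of the 3, which is 23.3% against 24.1%. All of these shares had the whole list's value inside their interval, and with this number of peaks no difference in cores could be told.

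**Figure D3:**
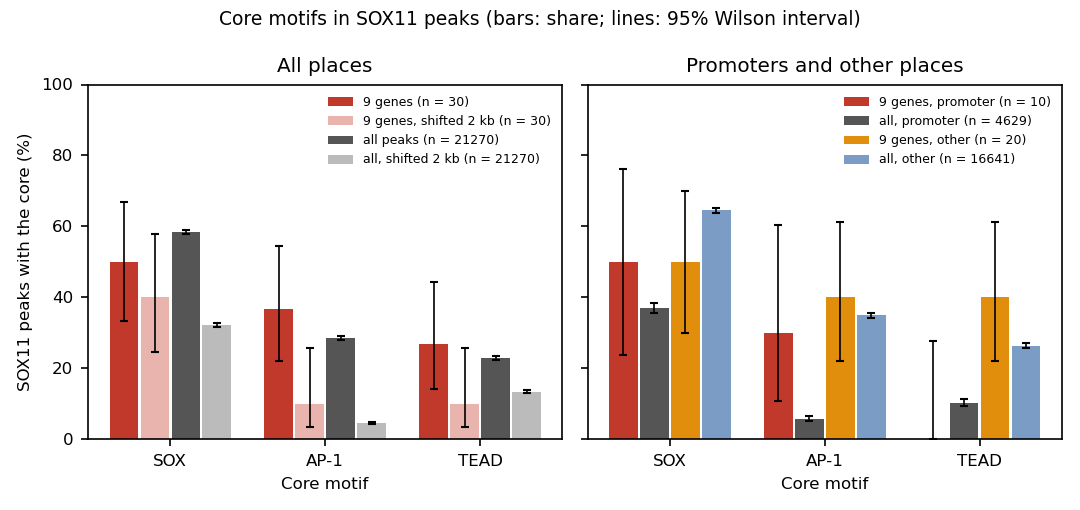
Percent of SOX11 peaks that hold a SOX, AP-1 or TEAD core, with 95% Wilson intervals as lines. The left panel sets the 30 peaks of the 9 genes and all 21270 peaks beside windows shifted by 2 kb. The right panel separates promoter peaks (10 of the 9 genes, 4629 in all) from other places, a split made after the values were seen. There the AP-1 bar of the 9 genes' promoters, 30% or 3 of 10 peaks, stands above the 5.7% of all promoters. The part of base composition in this was not tested.

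In promoters the counts were small, and this split was made after the values were seen. A SOX core was in 5 of the 10 promoter peaks (50%, interval 23.7% to 76.3%, against 37% of all 4629 promoter SOX11 peaks), and a TEAD core in none (interval 0 to 27.8%, against 10.3%). An AP-1 core was in 3 of the 10, or 30%, with an interval of 10.8% to 60.3% that lay above the 5.7% of all promoter SOX11 peaks. These 3 were the promoter peaks of *Lama3*, *Lamb3* and *Col7a1*. The other 7, at *Lamc1*, *Col17a1*, *Dst*, *Cd151* and *Adrm1*, held none. The 10 promoter peaks had a lower median G and C content than all promoter peaks, as given above, and the part of base composition in this share was not tested. Outside promoters an AP-1 core was in 8 of 20 peaks (40%, against 34.9%) and a SOX core in 10 of 20 (50%, against 64.5%).

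The share of genes with a SOX11 peak rose with gene length. With the protein-coding genes in 5 equal classes of length, it went from 31.3% in the shortest class to 73.9% in the longest, 54.6 kb and more, where the mean number was 2.29. *Lama3*, *Lamc1*, *Dst* and *Plec* were in that class, *Lama5*, *Lamb3*, *Col17a1* and *Col7a1* in the next, with 67.7% and a mean of 1.35, and *Cd151* in the second shortest, with 52.1% and a mean of 0.893. In the longest class, *Dst* with 8, *Lama3* with 6 and *Lamc1* with 4 peaks were above the mean and *Plec* with 1 was below. In the next, *Col17a1* and *Col7a1* with 3 and *Lama5* with 2 were above and *Lamb3* with 1 was below, and *Cd151* with 2 was above the mean of its class. The share with a SOX4 peak rose with length too, from 6.55% in the shortest class to 15.4% and 21.2% in the 2 longest. An own-promoter peak was found for 28.1% of the genes of the longest class, 29.7% of the next and 19.2% of the second shortest.

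**Figure D4:**
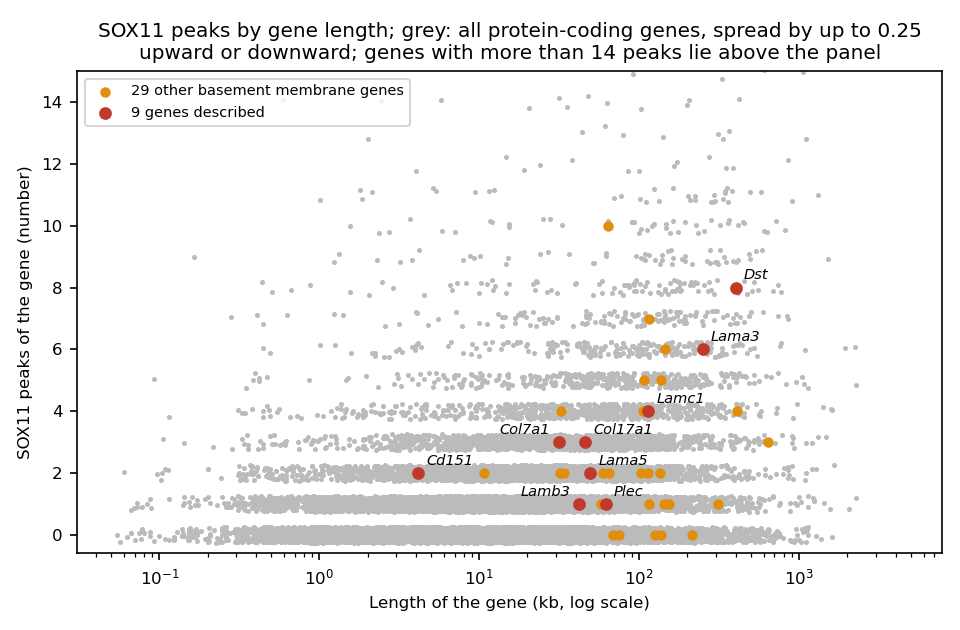
Number of SOX11 peaks of each protein-coding gene (grey, spread a little up and down) against gene length in kb on a log axis, with the 9 genes in red and the 29 other basement membrane genes in orange; 25 genes with more than 14 peaks lie above the panel. *Dst* with 8 and *Lama3* with 6 peaks stand above the mean of 2.29 of the longest length class, and *Plec* and *Lamb3* sit at 1 peak. That class runs from 54.6 to 4435 kb, and genes of closer length were not compared.

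A list of 29 other genes of the basement membrane and its receptors was searched in the same way. SOX11 peaks were found for 24 of them, SOX4 peaks for 7, and a SOX11 peak in the gene's own promoter for 8, and the median was 2 SOX11 peaks; 24 of the 29 genes are in the longest class. Over all genes of that class the corresponding shares were 73.9% for SOX11, 21.2% for SOX4 and 28.1% for own promoters.

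SOX4 peaks were found for *Lama4*, *Col4a2*, *Col4a3*, *Col18a1*, *Itga6*, *Fras1* and *Ntn4*, and each of these genes also had SOX11 peaks that overlapped them. Such overlap is reported by the study for nearly all SOX4-bound regions. *Col18a1*, for type XVIII collagen, had 7 SOX11 peaks, of which the ones 4.66 kb downstream and 40.5 kb upstream of the nearest *Col18a1* start were shared with SOX4. *Lama4*, for the α4 chain of vessel laminins, had 6, and its 2 SOX4 peaks were 791 kb and 853 kb from its nearest start. *Ntn4* and *Col4a3* had their SOX4 peak in an intron, 1.97 kb and 12.4 kb from a start, and those of *Col4a2* and *Fras1* were 32.7 kb and 205 kb from one. *Itga6*, for the α6 subunit of the hemidesmosome integrin, had a SOX11 peak in its promoter, 0.027 kb upstream of a start, and SOX4 peak number 472 48.1 kb upstream, on SOX11 peak number 658. No peak of either factor was found for *Lama1*, *Col4a4*, *Col4a5*, *Nid1* and *Npnt*. Besides *Itga6*, the own-promoter peaks were those of *Lamb1*, *Lamb2*, *Col4a2*, *Col15a1*, *Hspg2*, *Agrn* and *Itgb4*, named after their values were seen; *Itgb4* encodes the β4 partner of α6 and *Lamb1* the β1 chain of laminin-511.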

How the data were processed

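The deposited values were the start and end coordinates of peaks, in 1 list for SOX11-FLAG and 1 for SOX4-FLAG, with neither counts nor signal. Per the labels and the study's methods, chromatin was sonicated to fragments of 100 to 500 bp, and the authors used Bowtie2 for mapping to mm9, Picard for removal of duplicates and HOMER in factor style for peaks, then combined the replicates of each factor and took out blacklisted regions with bedtools. Tool versions, thresholds and the control given to HOMER are not given in the sources used here. A call therefore depends on thresholds and library depths that could not be examined here. Nearly all peaks of a list share 1 width, 258 bp for SOX11 and 340 bp for SOX4.

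Starts were read as 0-based. Overlaps, genes and motifs were computed in Python 3.11.15 with numpy 2.4.6 (the overlap of the lists was checked against bedtools 2.31.1), intervals with scipy 1.17.1 and figures with matplotlib 3.10.9, and the overlap, assignment, promoter and AP-1 searches were tested on simulated data. The centre of a peak decided its place, with promoters taking precedence over exons, exons over introns and introns over intergenic DNA, using protein-coding transcripts of GENCODE M1 and the mm9 sequence. No test against chance was made. Members, the list of 29 genes and the alternatives were chosen with earlier results of these data known. Of the 29, genes with a SOX4 peak, the 3 with most SOX11 peaks and those without peaks were named by rule, except 1 gene that, like the sequence of 1 peak, is not reported here. All 9 members were described, with each promoter peak, each peak shared with SOX4 and the earliest in the list, and neighbours where theirs was the nearest start. Other kinds of data of the study were not analysed here.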

Additional observations from a re-analysis of the deposited data

How the results depend on the processing

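Across the 14 counts and shares, 42 of 47 alternative values were close to those reported (counts within 1.5 times, shares within the interval). Without flanks, where the nearest-start rule still applied, all 9 genes had a SOX11 peak, against 49% of protein-coding genes. All 9 also had one with a flank of 50 kb (73.8% of protein-coding genes) and by the nearest start only (46.8%). By gene body and flank only, 8 had one, without *Plec*, against 50.7% of protein-coding genes. The number of members with a peak was not computed with starts of all transcripts. The number of SOX11 peaks ran from 25 (nearest start only) to 43 (flank of 50 kb, where 73.8% of protein-coding genes had one). With gene body and flank only, SOX4 peaks and genes with one fell from 2 to 1, since the *Plec* peak is outside the flank. Under that setting 10.2% of protein-coding genes had a SOX4 peak. Own-promoter peaks were found for 7 of the 9 genes under all 3 promoter windows tried, and for 7 to 11 of the 29 others. Stricter motif rules lowered the shares: the 10-letter consensus without mismatch, chosen after seeing the data, gave 3.33% for SOX (11.3% of the whole list) and 13.3% for AP-1 (11%), and TEAD cores within 50 bp of the centre gave 13.3% (10.3%). With 1 mismatch allowed in that consensus, also chosen later for promoters, 60% of the 10 promoter peaks held AP-1 (interval 31.3% to 83.2%), where all promoter SOX11 peaks had 13.6% and the whole list 41.1%. For single genes, 27 of 36 values were close; *Lama5* fell from 2 peaks to 1 without flanks, and *Lama3* ran from 3 to 10. No paired analysis was possible because each factor has 1 list for its 2 replicates, and no replicate could be left out for the same reason. Without heights or depth, absence from a list means only that no peak was called.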
